A study of Mus musculus with 6 samples.

Results

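Pik3ip1 and Txnip are 2 of the 19361 genes listed in any of the 6 single-cell count tables of mouse brain myeloid cells analysed here. Both were chosen from values in these tables, by their level in the library of Cx3cr1+/- mice beside the other 5, so their levels by library are given as a description with no test. Per the labels and the series' design text, the cells came from brains of female C57BL/6 mice aged 2 to 3 months and were enriched for Cd11b, a surface protein of myeloid and NK cells. The naive group (wild type, no tumour) and the metastasis group (E0771 brain metastases, no altered allele named) have 2 libraries each, every one from 1 brain. Mice with E0771 brain metastases that were Cx3cr1+/- or Cx3cr1-/- gave 1 library each, from 2 pooled brains, called Cx3cr1-het and Cx3cr1-null below. E0771 is a mouse mammary carcinoma line, injected into the heart 2 to 3 weeks before the brains were taken. No naive mice of either Cx3cr1 genotype are among the libraries, so a genotype and the response to a tumour cannot be told apart in them.

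Pik3ip1 encodes a membrane protein that binds the catalytic subunit of phosphoinositide 3-kinase (PI3K) and lowers its activity. PI3K makes the lipid signal that activates the kinase AKT, which in turn keeps FoxO transcription factors out of the nucleus, and resting lymphocytes are a well-known site of Pik3ip1 expression. Txnip encodes thioredoxin-interacting protein, an alpha-arrestin that binds thioredoxin, limits glucose uptake and can associate with the NLRP3 inflammasome of myeloid cells. Its transcription rises with glucose through the MondoA and ChREBP factors.

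Each table lists 1000 cell barcodes, with 491621 to 2667099 unique molecular identifiers (UMIs, 1 per captured transcript) in all. The median mitochondrial share of a barcode was 19.3% in naive 2, 20.3% in Cx3cr1-het and 19.4% in Cx3cr1-null, and 2.96% to 8.64% in the other 3 libraries. A barcode was called microglial when 19 microglial marker genes made up at least 3% of its non-mitochondrial UMIs and more than any of 15 marker lists of other cell types. This took 993 and 802 barcodes in naive 1 and 2, 115 and 992 in metastasis 1 and 2, 931 in Cx3cr1-het and 972 in Cx3cr1-null. The class is a range of a score and not a type: 303 barcodes of naive 2, 133 of metastasis 1 and 106 of Cx3cr1-het lay between 2.5% and 3.5%, and 6 to 19 in the other 3 libraries. Cx3cr1, the targeted gene, stood at 67.0 counts per 1000000 UMIs (CPM) in Cx3cr1-null microglial barcodes, 1389 in Cx3cr1-het and 835 to 5485 in the 4 libraries of unmodified mice. Which part of the gene was altered is not given in the sources used here. In the 4 libraries of unmodified mice, the file name of each table says metastasis where the sample label says naive, and the reverse. Labels were followed, and if the file names were right, every difference between metastasis and naive given below would change its sign. At most 1 barcode was shared by any of the 15 pairs of libraries.

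Pik3ip1 (ENSMUSG00000034614.14) lies on the plus strand of chromosome 11, from 3330401 to 3342971 in GRCm38, and Txnip (ENSMUSG00000038393.14) on the plus strand of chromosome 3, from 96557957 to 96561883. Both are protein-coding, and the counts cover whole genes, with 10 annotated transcripts of Pik3ip1 and 6 of Txnip. Each overlaps 1 gene on the minus strand. Gm12592 overlaps Pik3ip1 and had 0 to 2 UMIs in a library, while Gm15441 overlaps Txnip and had 2 to 13.

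The stretch before the Txnip start site is shown because it holds the letters for which the gene is known, the paired carbohydrate response sites. It covers chr3:96557707-96557956, the 250 bases before the start, plus strand, from RefSeq's GRCm38.p6 table. Capitals mark the matches found:
Txnip promoter: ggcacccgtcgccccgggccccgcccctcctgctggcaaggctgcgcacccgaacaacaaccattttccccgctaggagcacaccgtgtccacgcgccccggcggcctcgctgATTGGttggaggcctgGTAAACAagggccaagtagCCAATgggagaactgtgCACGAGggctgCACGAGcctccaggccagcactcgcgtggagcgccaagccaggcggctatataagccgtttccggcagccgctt
Read towards the gene, the capitals are a CCAAT box on the reverse strand (137 bases before the start), a FoxO site with the letters GTAAACA (121 bases before), a forward CCAAT box (102 bases before) and the carbohydrate response site CACGAG at 85 and 74 bases before. Of 32851 RefSeq promoter windows of 250 bases searched on both strands, 5.37% hold the carbohydrate response site, 3.17% the FoxO site and 33.8% the CCAAT box. The E-box CACGTG is held by 6.02% of windows, and a further FoxO site, GTAAATA, by 2.73%. The glucocorticoid site AGAACA is held by 16.1% of windows, and the TATA box, TATAAA, by 12.4%. None of these 4 is in the stretch shown as exact letters. Variants were not searched, and the letters tatataag near the end of the stretch, close to the TATA box, are therefore not marked. Matches are letters only: no table here measures a factor at this site.

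Pik3ip1 was abundant in the microglial barcodes of 1 library. It stood at 143 CPM in Cx3cr1-het (307 UMIs, exact Poisson 95% interval 127 to 160). In naive 2 it stood at 44.4 CPM (55 UMIs, 33.4 to 57.8) and in Cx3cr1-null at 21.1 CPM (35 UMIs, 14.7 to 29.4). The other 3 libraries had 3 or 4 UMIs each: 10.8 CPM in metastasis 1 (2.23 to 31.6), 8.28 in metastasis 2 (2.25 to 21.2) and 2.48 in naive 1 (0.51 to 7.25). Cx3cr1-het was above all 5 others, and naive 2 was above the remaining 4. The intervals of Cx3cr1-null, metastasis 1 and metastasis 2 overlapped, as did those of metastasis 1, metastasis 2 and naive 1. Cx3cr1-het was 3.22-fold above naive 2 (2.41 to 4.38) and 6.77-fold above Cx3cr1-null (4.76 to 9.90), intervals that, like all others here, cover counting error only. Over all deposited barcodes, with no naming of cells, the levels were 137 CPM in Cx3cr1-het, 53.0 in naive 2, 22.1 in Cx3cr1-null and 3.27 to 8.14 in the other 3. The UMIs of Cx3cr1-het were spread over many barcodes: 209 of 931 microglial barcodes had at least 1 UMI, 153 of them exactly 1, and the 3 barcodes with most UMIs held 6.84% of the total.

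Txnip was high in 5 libraries and low in metastasis 1. In microglial barcodes it stood at 849 CPM in Cx3cr1-het (810 to 889), 817 in metastasis 2 (739 to 902), 810 in naive 1 (760 to 863) and 768 in naive 2 (720 to 818). The Cx3cr1-null level was 552 CPM (517 to 589), and metastasis 1 had 151 CPM from 42 UMIs (109 to 204). The top 4 libraries lay close together, and only 1 of their pairs, Cx3cr1-het over naive 2, had a ratio whose interval left out 1 (1.11-fold, 1.02 to 1.20). Cx3cr1-null was below these 4 and above metastasis 1, without overlap of intervals. Cx3cr1-het was 1.54-fold above Cx3cr1-null (1.42 to 1.67) and 1.04-fold above the next library, metastasis 2 (0.93 to 1.16). All deposited barcodes gave the same order at the bottom, with 106 CPM in metastasis 1 and 533 in Cx3cr1-null, against 676 to 813 in the other 4.

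**Figure D1:**
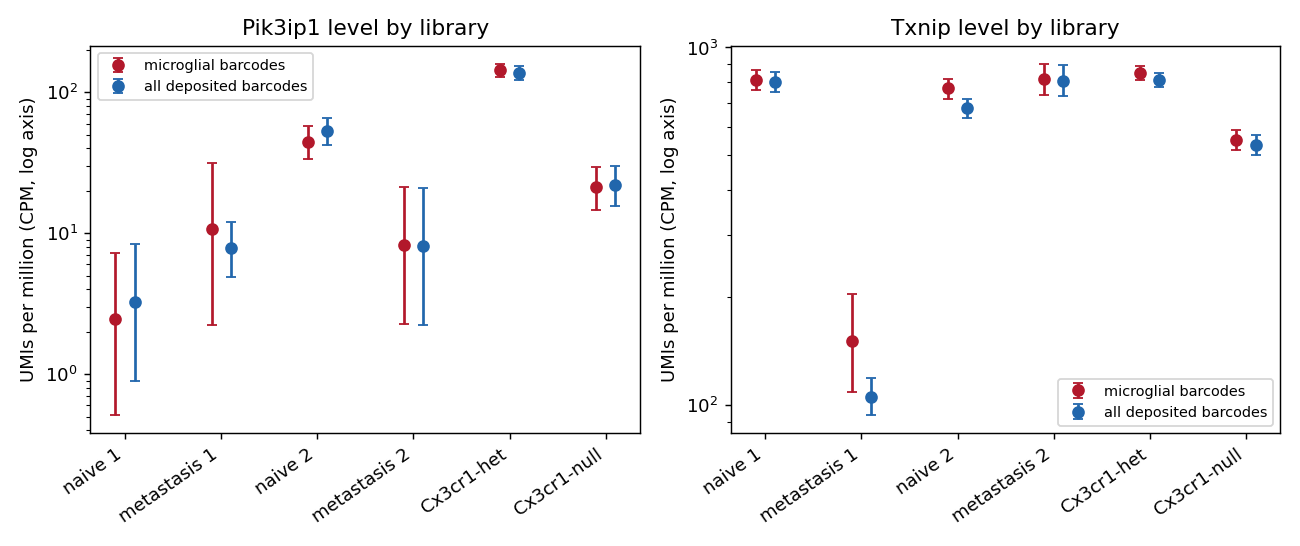
Level of Pik3ip1 (left) and Txnip (right) in each library, in CPM on a log axis, for microglial barcodes (red) and all deposited barcodes (blue), with exact Poisson 95% intervals of the count. Pik3ip1 is highest in Cx3cr1-het at 143 CPM, while Txnip lies between 552 and 849 CPM in 5 libraries and at 151 CPM in metastasis 1.

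Set against other genes, the Cx3cr1-het level of Pik3ip1 stood out and that of Txnip did not. Among 7703 genes with at least 100 UMIs over the 6 microglial sums, 0.0389% (3 genes) were at least 2-fold higher in Cx3cr1-het than in every other library. They were Ngp, a granule gene of neutrophils (log2 ratio over the highest other library 1.71), Pik3ip1 (1.69) and Ptgds, a prostaglandin synthase of the meninges and choroid plexus (1.03). Ccdc62 (0.98) and Klhl20 (0.96) came next. The same count was 3 genes (0.0389%) in naive 2, 2 (0.026%) in Cx3cr1-null, 20 (0.26%) in naive 1, 42 (0.545%) in metastasis 2 and 344 (4.47%) in metastasis 1. Txnip ranked at 772 of the 7703 genes, with a log2 ratio of 0.05. This ranking uses the values on which the genes were chosen and is a description.

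Markers of other cells in the same barcodes also differed between libraries. Of the 15 marker lists of other cell types, the choroid plexus and ependymal list alone was highest in Cx3cr1-het, at a summed 2092 CPM against 184 to 1210 in the other 5 libraries, with none of its 8 genes at 0 in Cx3cr1-het. The 5 barcodes of Cx3cr1-het led by that list held 1 Pik3ip1 UMI, too few to read a level from. The endothelial list stood at 683 CPM in Cx3cr1-het, below 944 in naive 2, and at 248 to 557 in the others. The mural list stood at 432 CPM in naive 2, 368 in Cx3cr1-het, 242 in Cx3cr1-null and at most 101.4 in the other 3, and the astrocyte list at 433, 398, 272 and 155 to 194. In all, 5 of the 15 lists (astrocyte, endothelial, mural, oligodendrocyte lineage and T cell) were highest in the 3 libraries with most Pik3ip1. The neutrophil list stood at 357 CPM in Cx3cr1-het, 484 in metastasis 2 and 115 to 287 in the others. The part of RNA from other cells in the Pik3ip1 level was not tested.

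The 3 libraries with most Pik3ip1 were also the 3 with a median mitochondrial share above 19%, so the level was compared within ranges of that share, as CPM of the non-mitochondrial UMIs. Under 10% mitochondrial UMIs, Pik3ip1 stood at 162 in Cx3cr1-het (222 microglial barcodes, 138 to 188), 39.4 in naive 2 (148 barcodes, 24.7 to 59.7) and 15.2 in Cx3cr1-null (140 barcodes, 6.55 to 29.9). Metastasis 1, metastasis 2 and naive 1 were at 11.0, 8.64 and 2.29 in this range. In this range too, the interval of Cx3cr1-het overlapped with that of no other library; the part of the mitochondrial share in the levels was not tested. Its level was 172 between 10% and 25% (139 to 211) and 166 above 25% (121 to 223), and these intervals overlap across the 3 ranges. Naive 2 gave 55.3 and 99.9 in the 2 higher ranges, with wide intervals (35.5 to 82.3, and 45.7 to 190), and Cx3cr1-null gave 35.2 and 16.0.

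Txnip was lower in microglial barcodes with 10% to 25% mitochondrial UMIs than in those under 10%, without overlap of intervals, in Cx3cr1-het and naive 1, of the 4 libraries with at least 100 microglial barcodes in more than 1 range. In Cx3cr1-het it stood at 1097 CPM of the non-mitochondrial UMIs under 10% (1034 to 1162), 886 between 10% and 25% (809 to 969) and 733 above 25% (633 to 844). Naive 1 gave 935 under 10% (872 to 1001) and 644 between 10% and 25% (547 to 754). Naive 2 gave 930, 844 and 744 along the ranges, with overlapping intervals (852 to 1014, 760 to 935 and 577 to 945). Cx3cr1-null gave 657, 665 and 618, with overlapping intervals as well. Cx3cr1-het was above Cx3cr1-null without overlap under 25%, and above 25% the intervals of these libraries overlapped (633 to 844 against 511 to 741). In Cx3cr1-het the median microglial marker share was 7.75%, 4.53% and 4.05% along the same ranges and the median depth 3862.5, 1256.5 and 1405.0 UMIs, and their part in the Txnip values was not tested.

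**Figure D2:**
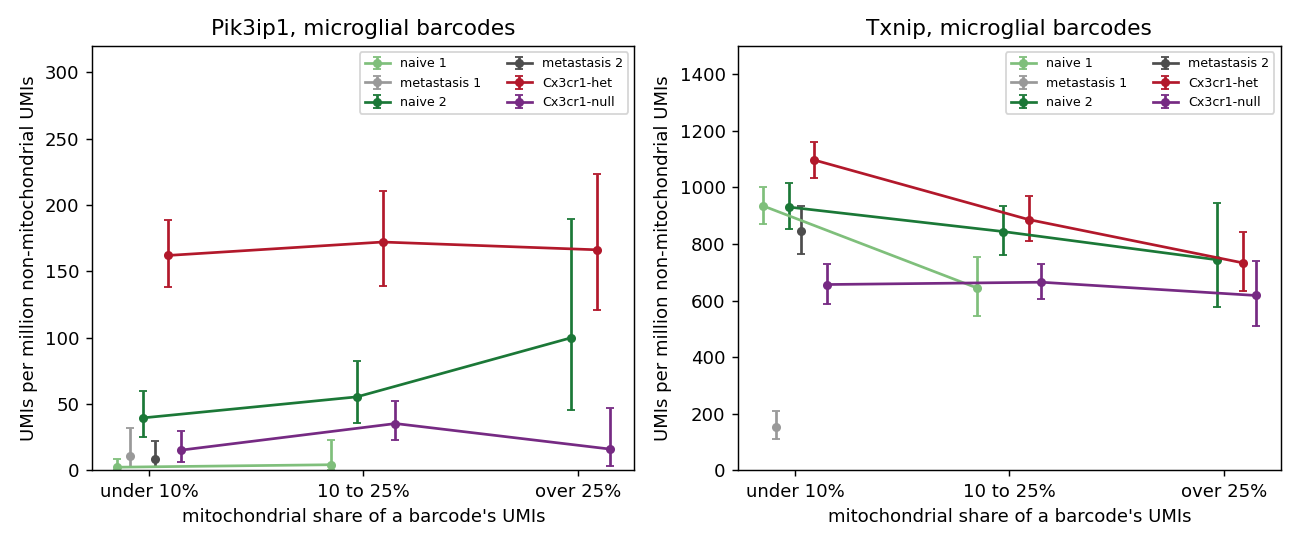
Pik3ip1 (left) and Txnip (right) in microglial barcodes, as CPM of the non-mitochondrial UMIs, by the mitochondrial share of the barcode, for bins of at least 100 barcodes with exact Poisson 95% intervals. Pik3ip1 in Cx3cr1-het stays between 162 and 172 across the ranges, while Txnip in Cx3cr1-het runs from 1097 down to 733.

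Shares of microglial barcodes with a Pik3ip1 UMI were highest in Cx3cr1-het, then naive 2 and Cx3cr1-null, before and after depth was made equal. Unthinned, 22.4% of Cx3cr1-het microglial barcodes had a Pik3ip1 UMI (exact 95% interval 19.8 to 25.3), against 5.86% in naive 2, 3.29% in Cx3cr1-null, 2.61% in metastasis 1 and 0.30% in naive 1 and metastasis 2. After each barcode was thinned to 800 UMIs and shallower ones were left out, the Cx3cr1-het share was 10.2% (91 of 896, 8.26 to 12.3). Naive 2 gave 3.15% (17 of 540, 1.84 to 4.99) and Cx3cr1-null 1.91% (17 of 889, 1.12 to 3.04). The other libraries gave 2 of 441 barcodes in naive 1, 1 of 115 in metastasis 1 and 0 of 55 in metastasis 2, with an exact interval up to 6.49%. Thinning left out 35 barcodes of Cx3cr1-het, 83 of Cx3cr1-null, 262 of naive 2, 552 of naive 1, 937 of metastasis 2 and 0 of metastasis 1.

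For Txnip, thinning removed the lead of Cx3cr1-het. Unthinned shares ran from 24.2% in metastasis 2 and 26.1% in metastasis 1 to 63.7% in Cx3cr1-het, with 40.3% in naive 1, 48.6% in Cx3cr1-null and 52.1% in naive 2. At 800 UMIs they were 41.6% in Cx3cr1-het (38.4 to 44.9), 42.2% in naive 1 (37.5 to 46.9), 40.9% in naive 2 (36.8 to 45.2) and 36.4% in metastasis 2 (20 of 55 barcodes, 23.8 to 50.4). Cx3cr1-null gave 34.2% (31.1 to 37.4) and metastasis 1 gave 12.2% (14 of 115, 6.82 to 19.6). Metastasis 1 was low on both measures, and metastasis 2, with a median of 323 UMIs per microglial barcode, was low only before thinning.

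None of the cell classes here is sure to lack either gene, so a share due to free RNA could not be read from these tables, and the other barcodes are given in its place. In Cx3cr1-het, 11 of 69 other barcodes had a Pik3ip1 UMI (15.9%, 8.24 to 26.7, median depth 2581 UMIs against 1446 in microglial barcodes), at 82.5 CPM (49.7 to 129). In metastasis 1, 17 of the 885 other barcodes had one (1.92%, 1.12 to 3.06, at 7.53 CPM).

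Among classes of at least 10 barcodes led by markers of another cell, Pik3ip1 was highest, in CPM, in the endothelial class. The 18 endothelial-led barcodes of naive 2 held 14 UMIs (123 CPM, 67.4 to 207), above the 44.4 CPM of microglial barcodes in that library. The 10 endothelial-led barcodes of Cx3cr1-het held 12 UMIs (212 CPM, 109 to 370), an interval that overlapped the microglial one. Smaller classes rest on few UMIs: Cx3cr1-null had 3 in 5 endothelial-led barcodes (115 CPM, 23.7 to 335), and naive 2 had 4 in 5 astrocyte-led barcodes (345 CPM, 94.1 to 884). Barcodes led by monocyte or macrophage genes had less: 2 UMIs in 242 barcodes of metastasis 1 (3.06 CPM), 3 in 17 of naive 2 (36.4 CPM), 2 in 15 of Cx3cr1-het (28.2 CPM, 3.41 to 102) and 0 in 11 of Cx3cr1-null, with an interval up to 65.5 CPM. The 63 carcinoma-led barcodes of metastasis 1, with a median of 8609 UMIs, held 2 UMIs (2.82 CPM).

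Txnip was lower in monocyte or macrophage barcodes than in microglial barcodes in all 4 libraries with at least 10 of the former. It stood at 108 against 151 CPM in metastasis 1 (84.7 to 137 against 109 to 204), 84.9 against 768 in naive 2 (7 UMIs, 34.1 to 175) and 395 against 849 in Cx3cr1-het (262 to 570). In Cx3cr1-null it stood at 231 against 552 CPM (123 to 395). The mean log2 ratio was -1.50 ± 1.16 (SD, n = 4 libraries), with p = 0.125 in an exact two-sided sign-flip permutation test, the smallest p that 4 libraries allow. The mean was -0.95 without naive 2, and -1.59 to -1.85 without any other single library. This test was added after the values were seen. With all 4 ratios already known to be negative, its p could only be the smallest possible. The ratio in Cx3cr1-het also uses a level on which Txnip was chosen, so no conclusion is drawn from this p. The classes were split on the marker lists of microglia and other cell types, and neither member is among their genes. That does not make the split independent of Txnip, since the microglial marker C1qb followed Txnip over the 6 microglial sums (r = 0.98). Endothelial-led barcodes stood at 229 CPM in naive 2 and 635 in Cx3cr1-het, and carcinoma-led barcodes of metastasis 1 at 48.0 (33.2 to 67.1).

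**Figure D3:**
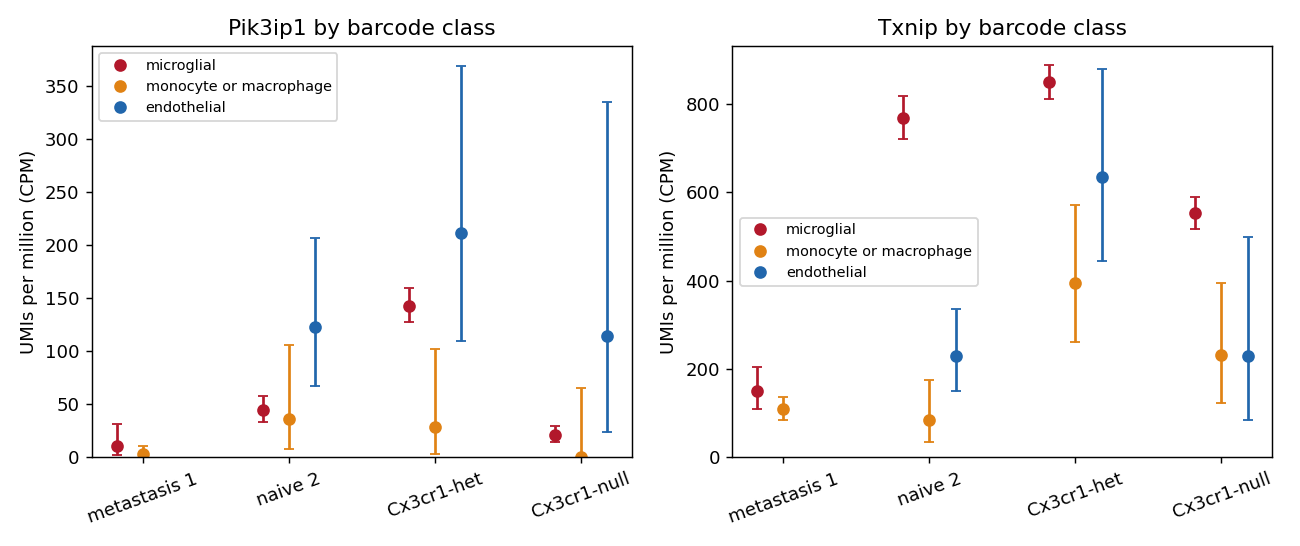
Pik3ip1 (left) and Txnip (right) in CPM by the marker list that leads a barcode, in the 4 libraries with monocyte or macrophage barcodes, for classes of at least 5 barcodes with exact Poisson 95% intervals. Txnip is lower in monocyte or macrophage barcodes than in microglial ones in each of the 4, and Pik3ip1 in endothelial-led barcodes reaches 212 CPM in Cx3cr1-het.

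Both genes were found together in 164 of the 931 microglial barcodes of Cx3cr1-het, 45 had Pik3ip1 alone, 429 had Txnip alone and 293 had neither. A Txnip UMI was seen in 78.5% of barcodes with Pik3ip1 (72.3 to 83.8) and in 59.4% of those without (55.7 to 63.0). The barcodes with Pik3ip1 were deeper, at a median of 2249 against 1345.5 UMIs. By depth, the shares with and without Pik3ip1 were 66.7% and 39.2% under 1000 UMIs (14 of 21 barcodes with Pik3ip1), 65.8% and 55.8% from 1000 to 2000, 81.6% and 81.0% from 2000 to 4000, and 95.2% and 96.6% above. The difference was larger in the shallower barcodes, and the intervals overlapped in every depth range, also under 1000 UMIs (43.0 to 85.4 against 31.1 to 47.7). Thinned to 800 UMIs, the shares were 51.6% (47 of 91, 40.9 to 62.3) and 40.5% (37.1 to 44.0), a difference of 11.2 percentage points that turned to -3.03 among barcodes with at least 400 genes and under 10% mitochondrial UMIs and to -2.53 with a microglial marker minimum of 5%. As a level, Txnip stood at 963 CPM in barcodes with Pik3ip1 (895 to 1034) and 783 in those without (737 to 832). Within each of the 4 depth ranges these intervals overlapped, for example 1006 CPM (921 to 1096) against 886 (794 to 984) at 4000 UMIs or more.

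In naive 2 and Cx3cr1-null the shares lay closer together, on fewer barcodes with Pik3ip1. At 800 UMIs the share was lower with Pik3ip1 than without in both, the reverse of Cx3cr1-het, with wide intervals. In naive 2, Txnip was seen in 26 of 47 microglial barcodes with Pik3ip1 (55.3%, 40.1 to 69.8) and in 51.9% of those without. At 800 UMIs it was seen in 6 of 17 (35.3%, 14.2 to 61.7) against 41.1%. In Cx3cr1-null the counts were 16 of 32 barcodes against 48.5% of the rest, and 5 of 17 (29.4%, 10.3 to 56.0) against 34.3% at 800 UMIs. The remaining 3 libraries had 3 microglial barcodes each with Pik3ip1, too few to compare.

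**Figure D4:**
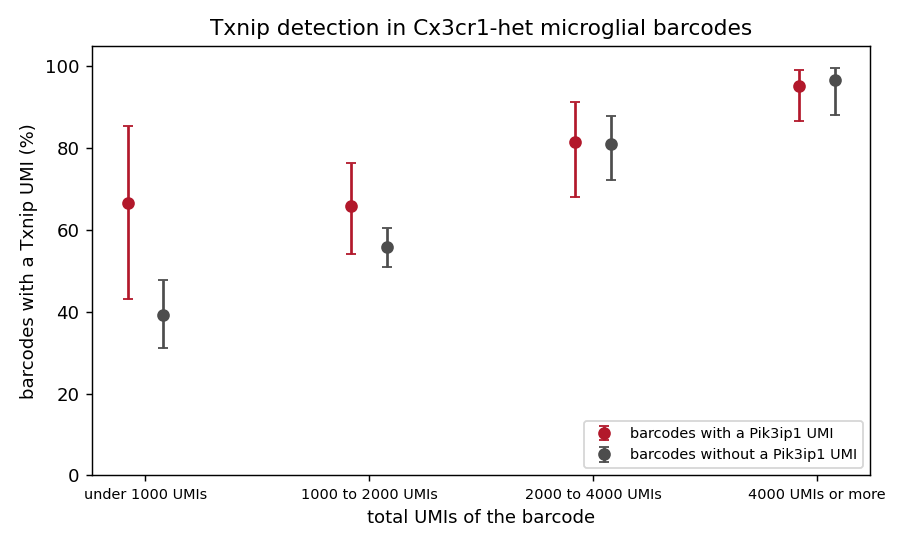
Percent of Cx3cr1-het microglial barcodes with a Txnip UMI, by the total UMIs of the barcode, for barcodes with (red) and without (grey) a Pik3ip1 UMI, with exact binomial 95% intervals. The shares differ most under 1000 UMIs (66.7% and 39.2%) and lie within 2 percentage points of each other above 2000 UMIs.

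Across the 6 microglial sums the genes did not run together: Pearson's r of log2(CPM + 10) was 0.27, which ranked Txnip at 3271 of the 7703 genes by likeness to Pik3ip1. The genes most like Pik3ip1 were Scmh1 (r = 0.99), Bin3 (0.98), Tet2 (0.98), Ccdc132 (0.98) and Skiv2l (0.97). Their range was far narrower than that of Pik3ip1, for example 44.7 to 90.4 CPM for Tet2, a DNA demethylase. The genes most like Txnip were Nabp2 (0.99), Mbd6 (0.99), Ube2j1 (0.99), Derl1 (0.98) and the complement gene C1qb (0.98), which is 1 of the 19 microglial markers. C1qb stood at 3056 CPM in metastasis 1 and at 5389 to 6418 in the other 5. These correlations are over 6 libraries that differ in depth and mitochondrial share, and carry no p.

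The design allows a test of metastasis against naive, with 2 libraries of unmodified mice in each group. Txnip in microglial barcodes was 151 and 817 CPM with metastasis and 810 and 768 CPM without, so the groups overlapped. Its log2 change was -0.80 (SE 0.78, adjusted p = 0.9995, edgeR quasi-likelihood test with Benjamini-Hochberg adjustment). Metastasis 1 carried the difference: without it the log2 change was -0.04. Within replicate 1 the log2 ratio of metastasis over naive was -2.42 (-2.90 to -1.98), and within replicate 2 it was 0.09 (-0.08 to 0.26). In the same 115 microglial barcodes of metastasis 1, the microglial list summed to 37229 CPM against 51309 to 95325 in the other 5 libraries, and the monocyte or macrophage list to 1908 CPM against 184 to 1034, with Txnip lower in barcodes led by the latter list. Their part in the low Txnip level was not tested. Replicate 1 was sequenced on a HiSeq 2500 and replicate 2 on a NextSeq 500. Each of these libraries is from 1 brain, and the labels do not say whether the brains were prepared apart, so a p-value here reflects only how these 4 libraries vary.

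Pik3ip1 had too few UMIs in microglial barcodes to pass the low-count filter of this fit. With no filter its log2 change was -1.41 (unadjusted p = 0.0786, edgeR adjusted p = 0.992). Over all deposited barcodes it passed the filter, with 3.27 and 53.0 CPM in the naive libraries and 7.87 and 8.14 in the metastasis libraries, and the log2 change was -1.82 (SE 1.18, edgeR adjusted p = 0.9997). The naive libraries differed more from each other than from either metastasis library, and naive 2 carried the sign: within replicate 1 the log2 ratio was 1.27 (-0.30 to 3.27), and within replicate 2 -2.70 (-4.61 to -1.30). Txnip over all barcodes had a log2 change of -0.79 (SE 0.99, edgeR adjusted p = 0.9997) and 0.068 without metastasis 1.

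At 800 UMIs the mean share of microglial barcodes with a Txnip UMI was 24.3% with metastasis and 41.6% in naive libraries, a difference of -17.3 percentage points (exact two-sided permutation test, p = 0.333, the smallest that 2 libraries against 2 allow). Metastasis 1 carried this as well, since the difference was -5.19 without it. For Pik3ip1 the difference was -1.37 percentage points (exact permutation p = 0.667), on means of 0.43% and 1.80%.

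For 6 lists of genes around the members, read in the same fit, no gene passed the test. In all, 0% of 8301 genes were called in microglial barcodes (0 genes, 91 at an unadjusted p under 0.05, and 1 by DESeq2), and 0% of 9678 over all barcodes (71 unadjusted, 5 by DESeq2). The median log2 change of all genes in microglial barcodes was -0.01. Of the 80 list genes with at least 100 UMIs, 0 were 2-fold above every other library in Cx3cr1-het and 0 were 2-fold below (0.0909% of all 7703 genes were below). Cx3cr1-het was the highest library for 12 of the 80, and for 13.1% of all 7703 genes (1012).

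Of the PI3K enzymes and phosphatases, the partners and opponents of the kinase that Pik3ip1 restrains, 13 of 15 were tested, with 6 above 0, 7 below and a median of -0.14. Pik3r1, the main regulatory subunit, ranged from 216 to 405 CPM over the 6 libraries, with 333 in Cx3cr1-het and 264 in Cx3cr1-null. Inpp5d (SHIP1), a phosphatase of blood and microglial cells acting on the PI3K product, ranged from 151 to 506 CPM, with 506 in Cx3cr1-het and 477 in Cx3cr1-null. Neither had a ratio between the Cx3cr1 genotypes as wide as that of Pik3ip1. Since Pik3ip1 was chosen for its level in Cx3cr1-het, no conclusion is drawn from this difference.

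Downstream, 14 of 15 AKT and mTOR genes were tested (6 above 0, 8 below, median -0.10). The S6 kinase gene Rps6kb1 ranged from 80.7 to 123 CPM and Gsk3b, a kinase that AKT inhibits, from 154 to 194. Sgk1, an AKT-related kinase gene, ranged from 486 to 1061 CPM. Tsc1, a brake on mTOR, had the largest surplus of these lists in Cx3cr1-het, at a log2 ratio of 0.58 over the next library, and is named after its value was seen. Of FoxO factors and targets, 16 of 18 were tested (8 above 0, 8 below, median -0.03). Klf2, which keeps lymphocytes and endothelium quiescent, ranged from 554 CPM in metastasis 1 to 2468 in naive 1, and the cell-cycle inhibitor gene Cdkn1b from 72.8 to 144. Cited2, a regulator of hypoxia responses, ranged from 86.3 CPM in naive 2 to 360 in metastasis 1 (log2 change 1.10, SE 0.52, edgeR adjusted p = 0.9995). Il7r, named after its value was seen, was the 1 gene of these lists under 0.05 before adjustment (log2 change -1.76, SE 0.67, unadjusted p = 0.0346, edgeR adjusted p = 0.9995). Ddit4, also named after its value was seen, stood at 123 CPM in naive 2, 86.7 in Cx3cr1-het and 34.4 in Cx3cr1-null. It stood at 4.96 to 25.2 CPM in the other libraries.

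On the Txnip side, 12 of 13 thioredoxin and peroxiredoxin genes were tested, with 9 above 0, 3 below and a median of 0.26. The peroxidase genes Prdx1 and Prdx5 were highest in metastasis 1, at 428 and 349 CPM, where Txnip was lowest, and ranged from 209 to 283 and from 141 to 255 in the other 5 libraries. Nlrp3, the inflammasome sensor, ranged from 141 CPM in Cx3cr1-null and 168 in Cx3cr1-het to 763 in metastasis 1. Of alpha-arrestins and the MondoA axis, 13 of 14 were tested (3 above 0, 10 below, median -0.17). Mlxipl, which encodes ChREBP, stood at 61.2 CPM in metastasis 1 and 129 to 171 elsewhere. The microglial fructose transporter gene Slc2a5, also a microglial marker here, stood at 7.20 CPM in metastasis 1 and 91.2 to 248 elsewhere, and the hexokinase gene Hk2 ranged from 115 to 298.

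Glucocorticoid-induced genes, a set to which Txnip itself is known to belong, were the last list. Of 13, 10 were tested, with 1 above 0, 9 below and a median of -0.69, and none was called. Nfkbia, the inhibitor of NF-kB, ranged from 2501 to 5977 CPM, the phosphatase gene Dusp1 from 1591 to 2218, and the metallothionein gene Mt1 from 226 in Cx3cr1-null to 720 in metastasis 1. Cx3cr1-het stood at 4853, 2218 and 609 CPM for these 3 genes. Other members, named after their values were seen, ran differently. Zbtb16 stood at 32.2 CPM in Cx3cr1-het, 27.4 in naive 2, 11.5 in Cx3cr1-null and 0 to 3.60 elsewhere. Fkbp5 stood at 232, 256 and 147 CPM in those libraries, and at 37.2 to 130 elsewhere. Those are the 3 libraries with most Pik3ip1. Errfi1 ran the opposite way, at 48.9, 54.1 and 28.4 CPM in those libraries and 112 to 119 elsewhere. Klf9 in Cx3cr1-null (17.5 CPM) was below metastasis 1 (21.6), and Sult1a1 in Cx3cr1-null (75.4) was below metastasis 2 (82.8). Mt2 was highest in Cx3cr1-het (142 CPM) and lowest in Cx3cr1-null (22.3). Tsc22d3 and Per1 were higher in metastasis 2 (492 and 279 CPM) than in Cx3cr1-het (424 and 253). A link to Pik3ip1 was not tested.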

How the data were processed

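The deposited files hold UMI counts, not normalized, for 1000 barcodes in each library. All values are whole, and their totals differ between libraries. STAR, Seurat and the mm10 build are named in the submitters' processing notes. Tool versions, the gene annotation and how barcodes were picked are not stated there. Pik3ip1, Txnip and all gene and marker lists were chosen with earlier results of these data known, and the 3% marker minimum was set after the marker distribution had been seen. Other barcodes were assigned to the marker list with most UMIs, given at least 5 UMIs and 2 genes of it, and stayed unnamed otherwise. No barcode was removed in the main analysis, and doublets were not removed; leaving out the top 5% of Scrublet scores per library (scanpy 1.11.5) was an alternative.

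Counts were summed per library, since cells are not replicates. Levels are CPM with exact Poisson 95% intervals, and shares have exact Clopper-Pearson 95% intervals; both cover counting error only. Shares were also taken after thinning each barcode once to 800 UMIs. Metastasis was compared with naive, 2 libraries each, by the quasi-likelihood test (edgeR 4.0.16, R 4.3.3). Genes passed filterByExpr, library sizes were scaled by TMM, and the threshold was 0.05 after Benjamini-Hochberg adjustment. DESeq2 1.42.0, other size factors, no filter, each replicate left out, a replicate block, other marker minimums, depths and mitochondrial limits were the alternatives. The replicate number goes with the sequencer model, per the labels, and a shared model need not be a shared batch. The deviations of same-numbered libraries from their group means correlated at -0.32 (microglial barcodes) and -0.43 (all barcodes). The edgeR script was tested on simulated counts. The named genes are the 2 members, the 3 most abundant genes of each list with any past the threshold, the 5 genes most like each member and the 5 with the largest ratio of Cx3cr1-het over the next library; others are marked as chosen after their values were seen. The values of 1 list gene that this rule names are not reported here. Coordinates come from GENCODE M21 (GRCm38). Both members were found in RefSeq's promoter table. Its Pik3ip1 window lies within the first GENCODE exon of the gene, holds none of the 7 motifs as exact letters and is not printed.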

Additional observations from a re-analysis of the deposited data

How the results depend on the processing

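The 3.22-fold Pik3ip1 surplus of Cx3cr1-het over the highest other library ran from 3.09 to 4.07 under 6 other choices of barcodes or scale, and the Txnip ratio of 1.04 ran from 1.02 to 1.13. As CPM of the non-mitochondrial UMIs, the Cx3cr1-het levels were 166 for Pik3ip1 and 983 for Txnip. Txnip there was 1042 CPM with at least 400 genes and under 10% mitochondrial UMIs, and 1035 CPM with a marker minimum of 5%. Under those same limits the co-detection difference turned to -3.03 and -2.53 percentage points; the cause was not tested. Leaving out 1 replicate at a time moved the log2 change of Txnip from -2.56 to -0.04 in microglial barcodes and from -2.97 to 0.068 over all barcodes, both upper ends without metastasis 1. Pik3ip1 over all barcodes ranged from -2.70 to -1.76 and was not tested without naive 2, where too few counts remained for the filter. Counts of called genes were 1 and 5 with DESeq2 (microglial and all barcodes), 27 and 110 with no low-count filter, and 0 to 24 in microglial barcodes with a replicate left out (10 without naive 1, 24 without naive 2). Neither member was called under any of these. With the replicate number as a block, 0 genes were called in both sets of barcodes, and the log2 change of Txnip was -1.26 in microglial barcodes and -1.43 over all, that of Pik3ip1 -0.84 over all. A crossed replicate block, added after seeing the data, called 0 and 1 genes. The Pik3ip1 levels of 3 libraries rest on 3 or 4 UMIs each.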
